A study of Mus musculus with 2 samples.

Results

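Squamous keratin-rich epithelial cells were selected on measured values from 2 droplet libraries of mouse uterus: a cell barcode counted as one if it held 10 or more transcripts of the keratins Krt5 and Krt14 together and no more than 1 of the leukocyte gene Ptprc. Transcripts are counted as UMIs, molecular tags that count each captured RNA once. There were 495 such cells among the 14848 barcodes that reached 1000 UMIs and 500 genes and whose mitochondrial share did not exceed 15%. The DOX plus AMH library held 488 of them among 7065 barcodes, 6.91% (exact binomial 95% interval, 6.33 to 7.52), and the DOX library 7 among 7783, 0.0899% (0.0362 to 0.185). Columnar epithelial cells, with at least 2 UMIs each of Epcam and Wfdc2 and at most 5 of Krt5 and Krt14 together, numbered 153 in DOX plus AMH, 2.17% (1.84 to 2.53), and 398 in DOX, 5.11% (4.63 to 5.63).

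The DOX plus AMH mice received doxorubicin at 3 mg/kg, a drug that damages DNA, with anti-Müllerian hormone (AMH) at 0.75 mg/kg, and the DOX mice received the same doxorubicin dose alone. The collection time was 4 h, and each group is a single library made from the pooled uteri of 5 mice, so treatment, pool and library cannot be told apart and no test was made. Whether cervix or vagina was taken with the uterus in either pool is not given in the sources used here, so a difference in dissection and the treatment cannot be told apart as a source of the 2 shares. The series text names prepubertal mice of postnatal day 25 and 2 weekly doses for bulk sequencing, and the schedule, strain and age of the animals used here are not given in the sources used here. No untreated library was analysed here, and both groups carry doxorubicin. Intervals in the text cover counting error only, not the spread between cells, animals or pools.

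Squamous epithelium is layered. Its basal cells sit on the basement membrane, divide, and carry the keratin pair Krt5 and Krt14 with the transcription factor p63, encoded by Trp63, while cells moving upward leave the cell cycle, switch keratins and build desmosomes and a cornified envelope. In the female reproductive tract such an epithelium lines the vagina and the outer cervix, whereas the uterus and oviduct are lined by a single columnar layer, and both linings derive largely from the Müllerian duct.

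The libraries held 97887259 UMIs over 8083 barcodes in DOX plus AMH and 129530270 UMIs over 9258 barcodes in DOX. In DOX plus AMH the squamous cells had a median of 24516 UMIs and 5146 genes, against 32308 UMIs and 6264 genes in columnar cells. The libraries shared 17 barcode sequences, of which 2 belonged to a squamous cell. Levels below are counts per 1000000 UMIs (CPM) of the summed cells of a class, and they are not scaled by gene length.

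The marker genes that the gate did not use were present in these cells. Trp63 was detected in 92.2% of the 488 cells (89.5 to 94.4), with a lowest count of 0, a median of 9 and a highest of 208 UMIs, and in 11.1% of columnar cells, at 0, 0 and 4 UMIs. Krt13, a keratin of cells above the basal layer in moist squamous linings, was detected in 67.2% of squamous cells, at 0, 3 and 563 UMIs, and in 18.3% of columnar cells, at 0, 0 and 160 UMIs. Spink5, an inhibitor of the proteases that shed cornified cells, was detected in 57.6% of squamous cells, at 0, 1 and 384 UMIs, and in 7.84% of columnar cells, at 0, 0 and 29 UMIs. These 3 genes were found in most squamous cells but with wide ranges, and the counts overlapped with those of columnar cells at 0.

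Keratin UMIs were also counted in stromal barcodes of the DOX plus AMH library, which gives the background for low shares. Stromal barcodes, gated as having at least 10 UMIs of Col1a1 and Col3a1 together, no Epcam or Ptprc and fewer than 10 keratin UMIs, held Krt5 at 14.6 CPM (13.6 to 15.7) in DOX plus AMH and 0.056 CPM (0.0182 to 0.131) in DOX. Krt14 stood at 8.92 CPM (8.11 to 9.79) in DOX plus AMH and 0.0784 CPM (0.0315 to 0.161) in DOX stromal barcodes. In DOX plus AMH, Krt5, Krt14, Krt15, Ly6d and Krt13 stood in stromal barcodes at between 0.253% and 0.348% of their squamous level. A Krt5 UMI was found in 35.9% of columnar cells at a median of 32308 UMIs and in 16.4% of stromal barcodes at 10945 UMIs. After each barcode was thinned to 2000 UMIs, the shares were 97.5% of squamous cells, 3.92% of columnar cells and 3.33% of stromal barcodes. Both gates cap these shares, the columnar one at 5 keratin UMIs and the stromal one at fewer than 10.

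Some squamous barcodes also carried RNA of other cell types. Stromal collagen UMIs, at least 10 of Col1a1 and Col3a1, were present in 71 of 488 cells (14.5%, 11.5 to 18), and the 6 stromal markers summed to 1033 CPM in squamous cells, 424 CPM in columnar cells and 13163 CPM in stromal barcodes. The 5 leukocyte markers summed to 6.02 CPM in squamous cells and 3.88 CPM in columnar cells. Ptprc is among them, and only the squamous gate caps it, which bounds the squamous sum in part. Of the markers of other keratinised or tract linings, Upk3a, which marks the bladder, Krt27, Krt71 and Krt35, which mark the hair follicle, the melanocyte gene Tyrp1, the Langerhans cell gene Cd207 and the thymic genes Psmb11 and Aire were all at 0 UMIs in squamous cells. Other members of those lists were counted. The urothelial list summed to 19.6 CPM in squamous and 42.6 CPM in columnar cells, with 148 UMIs of Upk1a and 124 of Upk1b in squamous cells. The Langerhans list summed to 43 and 23 CPM, with 510 UMIs of Cd74 in squamous cells. The hair follicle and sebaceous list summed to 1.87 and 1.38 CPM, the melanocyte list to 1.34 and 3.26 CPM and the thymic list to 11.6 and 0.626 CPM. Values without the 71 collagen-bearing cells are given where they changed a result, and the part of the remaining cell types was not tested. Foxn1, a transcription factor known from thymus and hair follicle, had 173 UMIs in squamous cells and 0 in columnar cells. Haemoglobin transcripts came to 11119 UMIs, of which 63.3% lay in 1 cell.

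Keratins set the cells apart from columnar cells in both directions. They made up 1.25% of all UMIs in squamous cells and 0.193% in columnar cells, and Krt5, Krt15 and Krt14 held 79.5% of the keratin UMIs of squamous cells. Of 53 keratin genes in the annotation, 26 had at least 20 UMIs over both classes, and 13 of these stood 2-fold or more above the columnar level and 6 stood 2-fold or more below it. By the same rule 11.4% of all 15314 genes were higher and 16.8% lower, but the gate itself used keratins. Genes of near-identical sequence, such as Krt6a and Krt6b or Krt14, Krt16 and Krt17, may share reads, so the split among them is uncertain.

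Among basal keratins, Krt5 stood at 4202 CPM in squamous and 11.5 CPM in columnar cells, a log2 ratio of 8.51 (8.22 to 8.82). Krt14, its partner, stood at 2787 and 6.26 CPM, a log2 ratio of 8.8 (8.40 to 9.23). Both genes chose the cells, so these ratios only describe the gate. Krt15, a basal keratin that the gate did not use, stood at 2933 CPM in squamous and 16.2 CPM in columnar cells, and was detected in 98.0% of squamous cells with a median of 72 UMIs. Krt17, a keratin of stressed and appendage epithelium, had 2620 UMIs in squamous cells and 1 in columnar cells, a log2 ratio of 10.45 (7.97 to 15.75). Krt17 was unevenly spread, with a lowest of 0, a median of 1 and a highest of 131 UMIs per squamous cell.

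Among keratins of the layers above, Krt13 stood at 1234 CPM in squamous and 114 CPM in columnar cells, and Krt6a, a keratin of wounded and fast-renewing epithelium, at 310 and 3.76 CPM. Krt4, the partner of Krt13, stood at 25.1 and 0.376 CPM. Krt16 had 321 UMIs in squamous cells and 0 in columnar cells, a log2 ratio of at least 5.84 against a floor of 3 counts over the class. The keratins of dry epidermis were low or near the columnar level, with Krt1 at 8.09 and 1.5 CPM and Krt10 at 49.7 and 33.6 CPM. Simple-epithelium keratins were lower in squamous cells but still counted. Krt8 stood at 110 CPM in squamous and 493 CPM in columnar cells, a log2 ratio of -2.16 (-2.24 to -2.08). Krt18 stood at 269 and 770 CPM and Krt19 at 79.5 and 332 CPM, whereas Krt7 was higher in squamous cells, at 170 and 96.4 CPM.

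**Figure D1:**
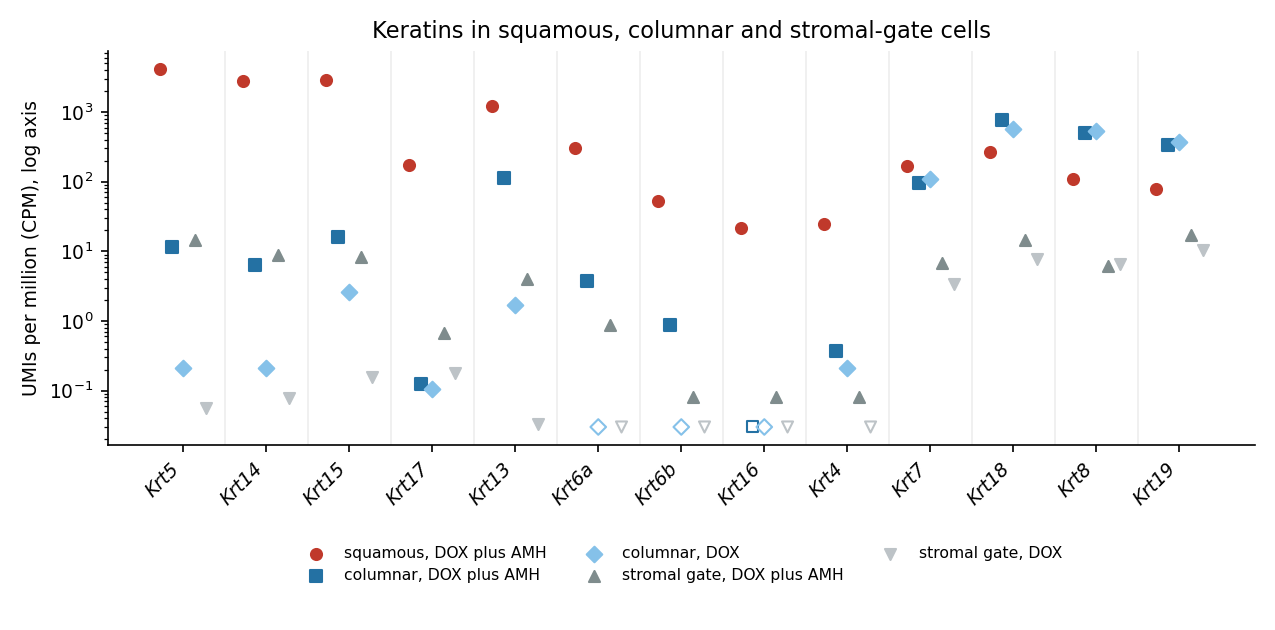
Summed level of 13 keratins in CPM (log axis) in squamous cells (red circles), columnar cells of the DOX plus AMH and DOX libraries (dark and light blue) and stromal-gate barcodes of both (grey). Open symbols at 0.03 CPM mark 0 UMIs. Krt5, Krt14 and Krt15 stand at 4202, 2787 and 2933 CPM in squamous cells, and Krt8, Krt18 and Krt19 are lower there than in columnar cells.

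Beyond keratins, 235 of 7563 genes (3.11%) with at least 100 UMIs over both classes and at least 20 CPM in the higher one stood 4-fold or more above columnar cells, and 430 (5.69%) stood 4-fold or more below. Every gene of the cells bears on a gate of this kind, so these shares describe 2 classes of cells and carry no test. Krt17, the uncharacterised Gm94 and Krtdap were among the highest ratios, and Gkn3 and Tmem212 among the lowest. Gene lists set against columnar cells below are counted at 2-fold. By that rule 11.4% of all 15314 genes were higher and 16.8% lower.

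Genes of the attachment to the basement membrane separated by component. Col17a1, the hemidesmosome collagen, stood at 304 CPM in squamous and 1.63 CPM in columnar cells, a log2 ratio of 7.54 (6.77 to 8.45). Col7a1, which forms the anchoring fibrils beneath, had 629 UMIs in squamous cells and 2 in columnar cells. The integrin chain Itga6 stood at 300 and 91.2 CPM and its partner Itgb4 at 131 and 74.9 CPM. A chain of the laminin that binds it differed by less than 2-fold, with Lama3 at 67.6 CPM in squamous and 97.9 CPM in columnar cells. The list of 15 basal-layer genes had a median log2 ratio of 0.86, with 7 genes past 2-fold upward and 0 downward, against -0.14 over all genes.

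Desmosome genes were higher in 10 of 12 measured members and lower in 2, with a median log2 ratio of 2.92. Dsc3 and Dsg3, the cadherins of lower squamous layers, stood at 74.2 CPM in squamous against 0.25 in columnar cells and at 161 CPM against 6.14. Pkp1, a plaque protein of squamous desmosomes, stood at 162 and 2.63 CPM, and Perp, a desmosome protein and p63 and p53 target, at 1305 and 135 CPM. The 2 lower members were the simple-epithelium forms, Pkp2 at 3.21 CPM in squamous and 25.3 CPM in columnar cells and Dsg2 at 48.1 and 98.4 CPM. The difference in desmosome genes thus depended on the isoform. Tight and gap junction genes went both ways, with 4 of 20 higher and 7 lower and a median of -0.52. Claudins of columnar cells were lower, Cldn10 at 30.7 CPM in squamous and 450.5 CPM in columnar cells and Cldn3 at 27.1 and 284 CPM, while the gap junction gene Gja1 was higher, at 71.1 and 10.0 CPM.

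Among 17 suprabasal genes 14 were past 2-fold upward and 0 downward, with a median log2 ratio of 4.85. Krtdap, a small secreted keratinocyte protein, stood at 194 CPM in squamous cells, where columnar cells held 2 UMIs. Ly6d, a surface protein of squamous cells, stood at 1888 and 43.4 CPM, and Dmkn, a secreted keratinocyte protein, at 310 and 16 CPM. The cornified-envelope list had 17 of 41 genes with at least 20 UMIs, of which 12 were higher and 1 lower, with a median of 2.79. Sprr1a, a small proline-rich protein crosslinked into the envelope, stood at 989 CPM in squamous and 81.0 CPM in columnar cells, and Tgm1, a crosslinking enzyme, at 9.29 and 0.876 CPM. Lor, the main protein of the dry skin envelope, stood at 3.14 and 2.88 CPM. Filaggrin (Flg), Cdsn, Sprr3 and Abca12 had fewer than 20 UMIs over both classes.

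Among 25 measured squamous transcription factors 16 were past 2-fold upward and 2 downward, with a median of 2.79. Trp63 stood at 442 CPM in squamous and 2.75 CPM in columnar cells, a log2 ratio of 7.33 (6.73 to 8.0). Zfp750, a target of p63 in differentiation, stood at 58.3 and 3.26 CPM, and the AP-2 factors Tfap2a and Tfap2c at 39.2 against 1.13 CPM and 38.5 against 1.13 CPM. Pitx1, a homeobox factor of the hindlimb and oral epithelium, stood at 93.4 and 6.39 CPM. Sox2, which marks the oesophagus and other foregut linings, had 0 UMIs in both classes. The 2 lower members were Barx2, at 38.8 CPM in squamous and 189 CPM in columnar cells, and Dlx5, at 49.3 and 170 CPM. Factors shared by many epithelia, such as Grhl2 at 122 and 109 CPM and Klf5 at 222.5 and 172 CPM, differed by less than 2-fold.

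Proteases, their inhibitors and defence genes went both ways. Of 26 measured proteases and inhibitors 12 were past 2-fold upward and 5 downward, with a median of 0.64. Spink5 stood at 883 CPM in squamous and 6.51 CPM in columnar cells, and the clade B serpins Serpinb2 and Serpinb5 at 79.5 against 1.00 CPM and 120 against 3.63 CPM, while the lysosomal protease Ctsb was lower, at 106 and 598.5 CPM. In the list of antimicrobial and cytokine genes 7 of 13 were higher and 1 lower, with a median of 1.65. Il33, an alarmin cytokine held in the nucleus of barrier cells, stood at 394 and 10.4 CPM and was detected in 92.6% of squamous cells, and Defb1, a defensin, had 409 UMIs in squamous cells and 2 in columnar cells. When the 71 cells with collagen UMIs were left out, that list's median came to -0.23, so its sign rests on those barcodes.

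Müllerian duct factors were detected in squamous cells. Pax8 and Pax2, paired-box factors of the Müllerian duct epithelium, stood at 74.0 and 107 CPM in squamous cells, at 139 and 193 CPM in columnar cells and at 0.683 and 0.502 CPM in stromal barcodes. At least 1 UMI of either gene was found in 454 of 488 squamous cells (93.0%, 90.4 to 95.1). Unthinned shares were 71.7% for Pax8 and 83.8% for Pax2 in squamous cells, and 0.680% and 0.579% in stromal barcodes, which are shallower. Thinned to 2000 UMIs, a Pax8 UMI was found in 15.2% of squamous cells and 0.126% of stromal barcodes. Both genes thus stood well above their level in stromal barcodes.

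The other factors of the list of 17 split. Emx2, which the mouse needs to form the tract, stood at 52.1 CPM in squamous and 100 CPM in columnar cells. Sox17 and Msx1, which serve uterine epithelium and its glands, were lower, Sox17 at 28.5 and 272 CPM and Msx1 at 20.6 and 560 CPM, and so was Foxj1, the factor of ciliated cells, at 0.334 and 24 CPM. Wnt7a, a ligand of the uterine epithelium held in the columnar and Wnt lists, stood at 2.94 and 54.3 CPM. Meis2 was higher, at 1139 CPM in squamous and 219 CPM in columnar cells, and so was Runx1, a factor of many epithelia and of blood, at 413 and 131 CPM. In all 4 of the 15 measured factors were past 2-fold upward and 3 downward, with a median of -0.16.

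Hox genes in squamous cells stood nearer to columnar cells than to stromal barcodes. The anterior Hoxb genes stood in squamous cells at about the columnar level or under it, with Hoxb2 at 33.5 CPM in squamous cells, 35.1 CPM in columnar cells and 5.93 CPM in stromal barcodes. Hoxb8 stood at 54.7, 120 and 1.43 CPM in that order of classes, and Hoxb6 at 54.0, 127 and 7.74 CPM. Hoxa10 and Hoxa11, posterior genes that pattern the uterus and cervix, stood at 14.3 and 4.14 CPM in squamous cells, at 5.38 and 1.75 CPM in columnar cells and at 213 and 73.2 CPM in stromal barcodes. Both epithelial classes also held stromal RNA, since the 6 stromal markers summed to 1033 CPM in squamous, 424 in columnar and 13163 in stromal barcodes. The part of that RNA in the levels of the posterior Hox genes was not tested. Hoxa13, the gene of the vaginal end of the tract, had 0 UMIs in both epithelial classes. Of 22 measured Hox genes 5 were higher and 5 lower, with a median of -0.29.

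The main female steroid receptors were lower in squamous cells. Esr1, the oestrogen receptor, stood at 792 CPM in squamous and 1286 CPM in columnar cells, with 0, 18 and 279 UMIs per squamous cell and 0, 35 and 419 per columnar cell (lowest, median and highest). Pgr, the progesterone receptor, stood at 83.9 and 339 CPM, a log2 ratio of -2.01 (-2.11 to -1.92). Of 10 measured genes of the list 0 were past 2-fold upward and 3 downward, with a median of -0.88.

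**Figure D2:**
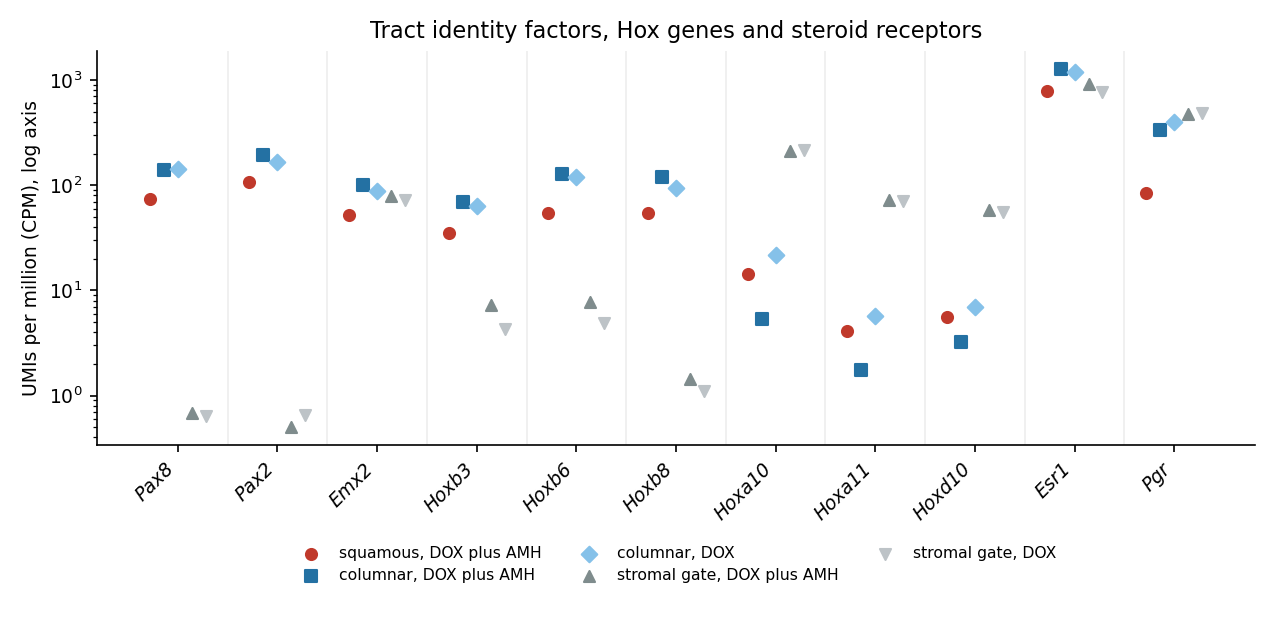
Level in CPM (log axis) of tract identity factors, Hox genes and steroid receptors in the same 5 classes, squamous cells first. In squamous cells Pax8, Pax2, Hoxb6 and Hoxb8 stand under the columnar level and above that of stromal barcodes, while Hoxa10, Hoxa11 and Hoxd10 are highest in stromal barcodes.

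Of 22 columnar genes 15 were past 2-fold downward in squamous cells and 0 upward, with a median log2 ratio of -1.50. Wfdc2 stood at 380 CPM in squamous and 2545 CPM in columnar cells, and Epcam, the epithelial adhesion gene, at 303 and 637 CPM, though both define the columnar gate. Of the 488 squamous cells 299 had at least 2 UMIs of each (61.3%, 56.8 to 65.6). Lcn2, a secreted iron-binding protein, stood at 4.01 CPM in squamous and 105 CPM in columnar cells, and Muc1, a surface mucin, at 5.95 and 60.2 CPM. Gkn3 had 2 UMIs in squamous and 606 in columnar cells, where 8.5% of cells held one, and the cilia gene Tmem212 had 3 and 629, found in 5.88% of columnar cells. Tmem212 stood at 78.8 CPM in columnar cells of DOX plus AMH and 0.526 CPM in those of DOX, and Ccdc153 and Cfap44, other cilia genes, at 53.3 against 0 CPM and 28.2 against 0.105 CPM, so these low ratios do not hold against DOX columnar cells.

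Signalling genes differed by family. Notch genes were higher in 7 of 12 members and lower in 1, with a median of 1.36, including the receptor Notch3 at 70.9 CPM in squamous and 23.8 CPM in columnar cells, the ligand Jag2 at 48.7 and 5.13 CPM and the target Nrarp at 23.1 and 3.38 CPM. Wnt genes went both ways, with 10 of 23 higher, 7 lower and a median of 0.18. The secreted Wnt modulator Sfrp1 was higher, at 76.0 and 6.26 CPM, as were the ligands Wnt5b and Wnt4, at 34.2 against 4.38 CPM and 104.5 against 46.0 CPM, while Lgr5, a Wnt target and stem cell receptor, was lower at 5.68 and 150 CPM. In the EGF family 1 of 11 genes was higher and 4 were lower, with a median of -0.88, the higher one being the receptor Egfr at 205.5 CPM in squamous and 64.0 CPM in columnar cells and the lowest Nrg4.

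Lists tied to the treatments had medians between -0.53 and 0.18, against -0.14 over all genes. Of all genes 11.4% were past 2-fold upward and 16.8% downward. Glucocorticoid genes had the largest share of lower members among these lists, 42.9%. NRF2 and retinoid genes had the largest shares of higher members, 33.3% each. Amhr2, the AMH receptor, had 4 UMIs in squamous and 4 in columnar cells. Receptor chains that AMH signals through differed by less than 2-fold, with Bmpr1a at 135 CPM in squamous and 110 CPM in columnar cells and Acvr1 at 40.8 and 27.5 CPM, and the BMP and AMH list had 4 of 19 genes higher, 1 lower and a median of 0.18. The p53 list, whose genes answer DNA damage, had 7 of 34 higher, 4 lower and a median of 0.11. Cdkn1a, the cell cycle inhibitor, stood at 102 and 39.2 CPM, Phlda3, an Akt inhibitor, at 173 and 15 CPM, and Mdm2, the feedback gene of p53, at 46.5 and 43.4 CPM. Interferon genes had a median of -0.26 (3 of 23 higher, 6 lower), glucocorticoid genes -0.53 (1 of 14 higher, 6 lower), immediate-early genes -0.42 (2 of 19 higher, 3 lower), NRF2 genes -0.29 (6 of 18 higher, 4 lower) and retinoid genes 0.17 (6 of 18 higher, 5 lower). With 7 squamous cells in DOX, none of these was set against the other treatment.

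**Figure D3:**
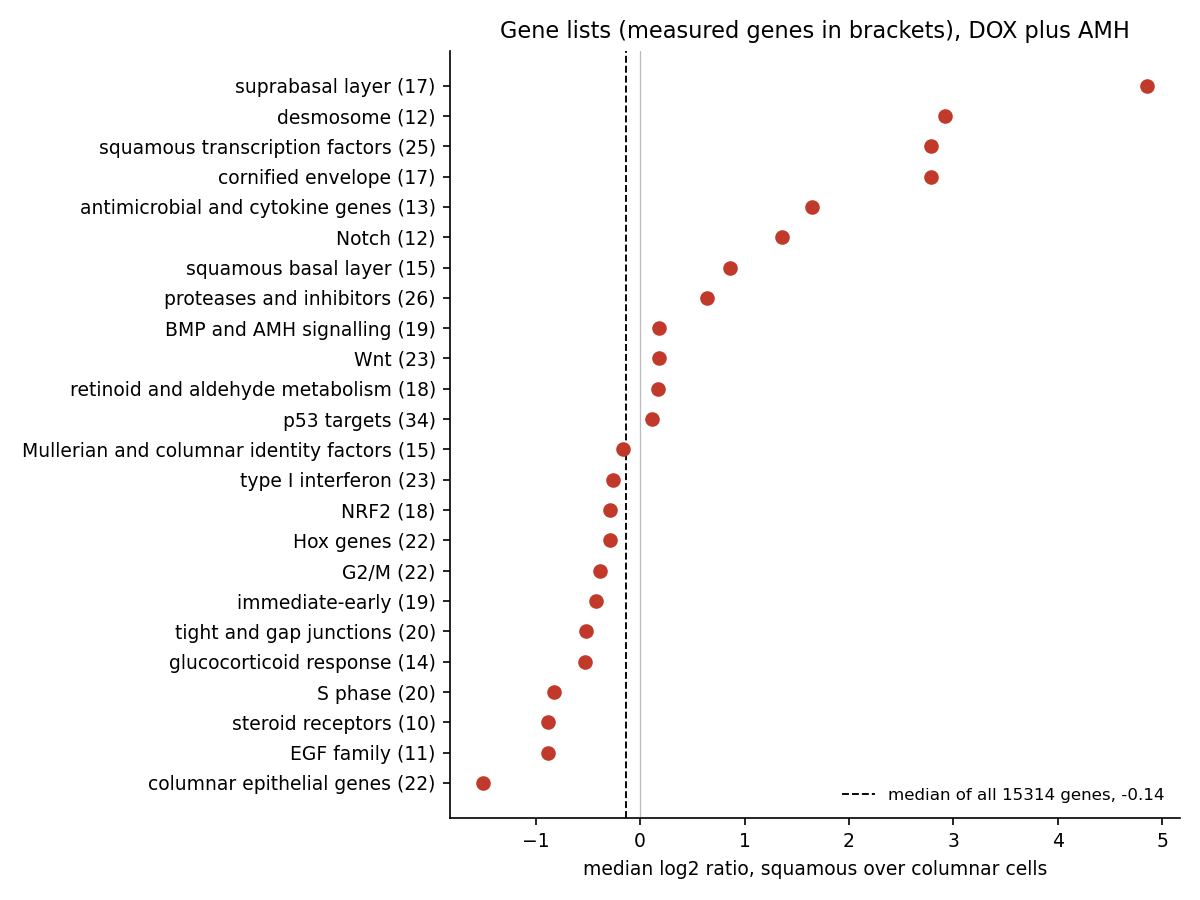
Median log2 ratio, squamous over columnar cells of the DOX plus AMH library, of 24 gene lists over members with at least 20 UMIs, with the median of all 15314 genes as a dashed line at -0.14. The suprabasal list stands at 4.85 and the columnar list at -1.50.

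Layers were drawn within the 488 cells of DOX plus AMH by a score, the mean log level of 13 upper-layer genes such as Krt13, Krt6a, Krtdap, Sbsn and Sprr1a less that of 9 lower-layer genes such as Col17a1, Itgb4 and Dst. Equal parts of the ranked cells gave 163 lower, 163 middle and 162 upper cells. The score ran without a break, and 71 cells lay within 0.1 of the lower boundary and 21 within 0.1 of the upper one, so the groups are ranges and not cell types. Median depth was 19351 UMIs in lower, 24283 in middle and 33707 in upper cells. Cells with at least 10 collagen UMIs numbered 7 in lower, 48 in middle and 16 in upper cells.

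Some of the upper-layer score genes share a motif close to their start. The 250 bases before the RefSeq start (build GRCm38.p6) are shown for 3 upper-layer genes, Krt13, Sprr1a and Krtdap, and for 1 lower-layer gene, Col17a1, since these genes ordered the cells. Capitals mark TGANTCA, the AP-1 motif, which reads the same on both strands.
Krt13, chr11:100121567-100121816, minus strand: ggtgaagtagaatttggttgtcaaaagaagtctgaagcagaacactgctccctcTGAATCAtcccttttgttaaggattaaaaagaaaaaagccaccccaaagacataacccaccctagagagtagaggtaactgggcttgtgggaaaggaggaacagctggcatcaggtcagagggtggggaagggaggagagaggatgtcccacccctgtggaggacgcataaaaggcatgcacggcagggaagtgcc
Sprr1a, chr3:92485882-92486131, minus strand: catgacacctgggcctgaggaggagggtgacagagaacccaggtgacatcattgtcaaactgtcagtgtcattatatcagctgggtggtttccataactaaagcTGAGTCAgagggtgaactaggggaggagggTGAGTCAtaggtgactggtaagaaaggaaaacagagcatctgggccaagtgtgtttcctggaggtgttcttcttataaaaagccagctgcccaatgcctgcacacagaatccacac
Krtdap, chr7:30787655-30787904, plus strand: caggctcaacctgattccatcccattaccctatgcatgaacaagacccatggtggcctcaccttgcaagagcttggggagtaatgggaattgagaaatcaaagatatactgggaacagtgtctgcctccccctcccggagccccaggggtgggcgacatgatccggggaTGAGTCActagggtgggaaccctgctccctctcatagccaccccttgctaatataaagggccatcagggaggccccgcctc
Col17a1, chr19:47692043-47692292, minus strand: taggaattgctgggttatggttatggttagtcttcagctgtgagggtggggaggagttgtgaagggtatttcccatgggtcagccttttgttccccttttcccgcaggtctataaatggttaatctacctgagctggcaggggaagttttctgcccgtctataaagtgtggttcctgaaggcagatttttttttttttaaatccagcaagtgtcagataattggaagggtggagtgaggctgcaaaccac
The match began 196 bases before the start in Krt13, 146 and 116 bases before it in Sprr1a and 81 bases before it in Krtdap, and Col17a1 held 0 matches. Of 13 upper-layer score genes 9 had a promoter in the table, and 6 of the 9 held TGANTCA, against 0 of 4 lower-layer score genes and 2217 of 32851 promoters in all (6.75%). A score gene counted if any of its promoters held a match, whereas shares of all count single promoters. Krt13 has another window, not shown, with matches 183 and 34 bases before its start. The 6 include Sprr1b, with 3 UMIs in squamous cells, and Ivl, at 3.41 CPM in upper and 4.87 CPM in lower cells. GCCNNNGGC, the AP-2 motif, was found in 1 of the 9 and 13.7% of all, and TATAAA in 6 of the 9 and 12.4% of all, on either strand. In the 4 printed windows no match of these overlapped with TGANTCA. Such matches describe letters and do not show that a factor binds.

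Between upper and lower cells 522 of 6943 genes (7.52%) stood 2-fold or more above and 616 (8.87%) 2-fold or more below, score genes left out. With TMM scaling the split was 656 higher and 471 lower. Since the score was built from the same cells, the counts are a description and read no further.

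Lower cells held the regulators and matrix genes of a basal layer. Trp63 stood at 895 CPM in lower, 463 in middle and 168 in upper cells, and Krt15 at 3794, 3076 and 2323 CPM in the same order. Dlk2, a Notch modulator, stood at 47.3, 12.6 and 0.162 CPM, the Wnt ligand Wnt10a at 35.0, 14.5 and 0.486 CPM and the Notch ligand Jag2 at 120, 54.7 and 3.24 CPM. Each of them was lower at every step up the score. Among the other lowest ratios were Trp73, the p63 relative, at 1.14 CPM in upper and 41.0 CPM in lower cells, Cdh13, a membrane-anchored cadherin, at 24.0 and 672 CPM, and the matrix genes Thbs1, at 4.05 and 133 CPM, and Col12a1, at 2.27 and 63.9 CPM. The Wnt list had 12 of 21 genes lower and 1 higher in upper cells, with a median log2 ratio of -1.12, against -0.12 over all genes, of which 11.6% were lower and 9.38% higher by that rule. The remaining members of the basal list had a median of -1.83, with 4 of 6 lower and 1, Sfn, higher.

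Krt5 and Krt14 differed by less than 2-fold across the layers. Krt5 stood at 3025 CPM in lower, 3412 in middle and 5548 in upper cells and Krt14 at 2299, 2245 and 3530 CPM. Both gated the cells, which bounds how low they can go.

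Envelope and suprabasal genes were mostly higher in upper cells. Spink5 stood at 34.7 CPM in lower, 286.5 in middle and 1876 in upper cells, and Ly6d at 568, 904 and 3482 CPM. Krt6b stood at 0.287, 2.64 and 128 CPM and Dsg1b, the desmosomal cadherin of upper layers, at 0.573, 1.88 and 35.7 CPM. Desmosomal cadherins ran in opposite directions, since Dsc2 stood at 306 CPM in upper and 37.3 CPM in lower cells and Dsc3 at 52.5 and 113.5 CPM. Of 11 measured envelope genes outside the score 9 were higher and 1 lower, with a median of 3.00, and of 9 suprabasal genes 7 were higher and 0 lower, with a median of 2.45. Transcription factors of late differentiation were higher in upper cells, with Zfp750 at 113 and 4.59 CPM, Grhl3 at 37.3 and 3.44 CPM and Grhl1 at 31.5 and 1.15 CPM. The Notch receptor Notch3 and the cell cycle inhibitor Cdkn1a stood at 116 and 15.8 CPM and at 143 and 28.4 CPM.

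Other envelope genes were at low levels. Ivl, an envelope protein in the score, stood at 3.41 CPM in upper and 4.87 CPM in lower cells, and Lor at 1.78 and 4.87 CPM, levels of few UMIs. Tgm1 stood at 19.5 and 0.860 CPM. Tmprss11g, a transmembrane serine protease, was higher in upper cells, at 135 and 3.44 CPM.

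Some remaining lists are given by their counts and the others by medians, beside 9.38% of all genes higher and 11.6% lower. Junction genes had 11 of 20 higher and 2 lower (median 1.21), columnar genes 13 of 19 higher and 1 lower (1.62), proteases and inhibitors 14 of 25 higher and 2 lower (1.43), NRF2 genes 9 of 17 higher and 1 lower (1.05) and desmosome genes 6 of 12 higher and 2 lower (1.28). Krt19, Cldn4 and Tspan1 were among the columnar-type genes that were higher in upper cells, Krt19 at 134 and 4.30 CPM. Mucous cells, described below, held part of these UMIs, since Krt19 stood at 317 CPM in mucous and 81.1 CPM in other upper cells, Krt8 at 368 and 82.8 CPM and Tspan1 at 409 and 19.4 CPM, while Cldn4 stood at 49.1 and 58.1 CPM. Medians lay between -0.32 and 0.84 for Müllerian factors, Hox genes, squamous factors, antimicrobial genes, Notch, the EGF family, BMP and AMH signalling, steroid receptors, retinoid genes, p53 targets, interferon, glucocorticoid and immediate-early genes. Members of some of them still passed 2-fold. Squamous factors had 10 of 25 higher and 6 lower, and Notch genes 5 of 11 higher and 3 lower. Immediate-early genes had 7 of 18 higher and 0 lower, and p53 targets 3 of 31 higher and 8 lower. Pax2 stood at 115.5 CPM in lower, 110 in middle and 99.6 in upper cells, and Pax8 at 97.7, 67.7 and 66.0 CPM.

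**Figure D4:**
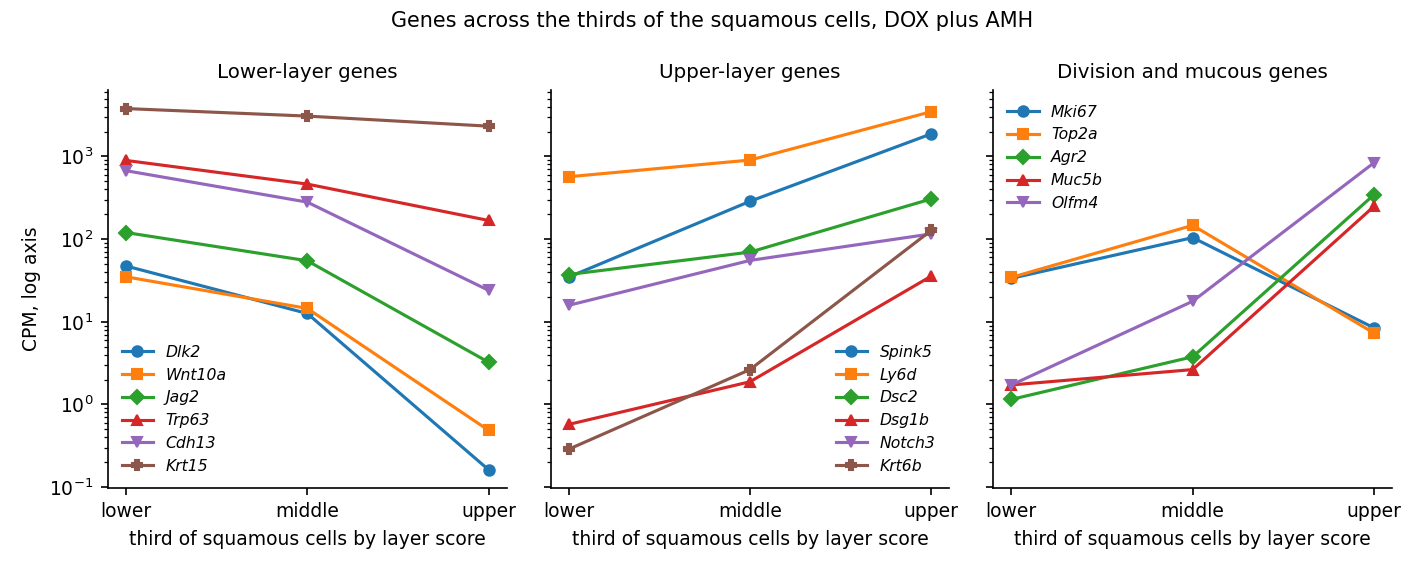
Level in CPM (log axis) of 17 genes across lower, middle and upper groups of squamous cells ordered by the layer score. Trp63, Jag2 and Dlk2 are lower and Spink5 and Krt6b higher at each step, Mki67 and Top2a are highest in the middle group, and Agr2, Muc5b and Olfm4 reach 344, 249 and 839 CPM in the upper group.

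UMIs of division genes were most frequent in middle cells. Mki67 and Top2a, made in cells that copy DNA and divide, stood at 33.5 and 34.4 CPM in lower cells, at 104 and 147 CPM in middle cells and at 8.43 and 7.30 CPM in upper cells. Thinned to 2000 UMIs, 6 of 162 lower cells (3.70%, 1.37 to 7.89), 24 of 163 middle cells (14.7%, 9.67 to 21.1) and 1 of 162 upper cells (0.617%, 0.0156 to 3.39) held a UMI of either gene. Unthinned, the shares were 19% of lower, 35% of middle and 16.7% of upper cells. The 3 groups and the whole class were thinned in separate random draws, so their cell counts do not add up. Over all squamous cells the share was 7.39% (5.23 to 10.1), against 12.4% (7.64 to 18.7) in columnar cells and 1.11% (0.808 to 1.49) in stromal barcodes. Unthinned shares of these classes were 23.6%, 36.6% and 4.78%. By Mki67 alone, thinned, they were 6.57% (4.54 to 9.15), 5.88% (2.72 to 10.9) and 0.454% (0.269 to 0.717). The order of squamous and columnar cells thus depended on Top2a. The G2/M list was lower in upper than in lower cells in 19 of 21 members, with a median of -1.59, and the S phase list in 8 of 14, with a median of -1.04. Against columnar cells the G2/M list had 0 of 22 genes past 2-fold either way, with a median of -0.38, and the S phase list 0 of 20 higher and 6 lower, with a median of -0.82. Middle cells also held most barcodes with collagen UMIs, and without such cells the share over all squamous cells was 6.73%. Some columnar genes peaked there too, Erbb4 at 4.30 CPM in lower, 114 in middle and 5.68 in upper cells. Msx1 stood at 5.16, 50.5 and 3.57 CPM, whereas Krt8 rose at each step, at 48.4, 109 and 147 CPM. A middle barcode of 103934 UMIs held 10 of Krt14 and 0 of Krt13 and Trp63. The part of such barcodes in the share of middle cells was not tested.

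A mucous programme appeared in a few upper cells. Agr2, which folds mucins, the mucin Muc5b, the trefoil peptide Tff1 and Spdef, a transcription factor of mucous cells, summed to at least 10 UMIs in 30 of 488 cells (6.15%, 4.19 to 8.66) and to 0 in 376. All 30 had at least 10 UMIs of Krt13, and 15 of them had no Trp63 UMI. The threshold was chosen after the values were seen, and 29 of the 30 were upper cells. Krt13 and Sprr1a, with medians of 72 and 45 UMIs in those 29, are genes of the layer score. Their place among upper cells thus follows in part from the score itself. In those 29 cells Muc5b had a lowest of 0, a median of 16 and a highest of 533 UMIs, against 0, 0 and 3 in the other 133 upper cells. Agr2 had 2, 18 and 948 UMIs in mucous cells and 0, 0 and 4 in the others. Both genes belong to the sum that set the groups apart, so these ranges only describe the threshold. Tff1 was uneven, with 67.3% of its mucous-cell UMIs in 1 cell, and without that cell it stood at 614 CPM. That cell also held 45.5% of the Agr2 and 35% of the Muc5b UMIs of mucous cells. Without it Agr2 and Muc5b stood at 870 and 758 CPM in mucous cells.

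Both gate keratins were lower in mucous cells. Krt5 had a lowest of 9, a median of 48 and a highest of 1048 UMIs in mucous cells and 10, 216 and 768 in the other upper cells, at 2451 and 6445 CPM, a log2 ratio of -1.39 (-1.45 to -1.34). A cell with little Krt14 passes the gate only through Krt5, which bounds Krt5 in such cells. Krt14 had 0, 2 and 169 UMIs in mucous cells and 0, 103 and 618 in the others, at 479 and 4413 CPM, a log2 ratio of -3.20 (-3.32 to -3.09). The groups overlapped for both genes, with Krt14 lower in most mucous cells. Krt17 stood at 16.6 and 259 CPM, Krtdap at 52.7 and 491 CPM and Fabp5, a fatty acid carrier of keratinocytes, at 64.3 and 983 CPM. Krt13 did not part the groups, with medians of 72 and 80 UMIs. Columnar genes differed, Epcam with a median of 31 UMIs in mucous cells against 8 in the others, Wfdc2 with 40 against 1 and Krt8 with 12 against 1, while Krt7 stood at 162 and 191 CPM. In all 131 of 6503 genes (2.01%) stood 4-fold or more above and 34 (0.523%) 4-fold or more below in mucous cells. Olfm4, a secreted glycoprotein, stood at 3458 CPM in mucous and 80.3 CPM in other upper cells, and Clca1, a secreted mucus protein, at 784 and 2.51 CPM. When mucous cells were left out, 383 genes were past 2-fold upward in upper cells and 606 downward.

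**Figure D5:**
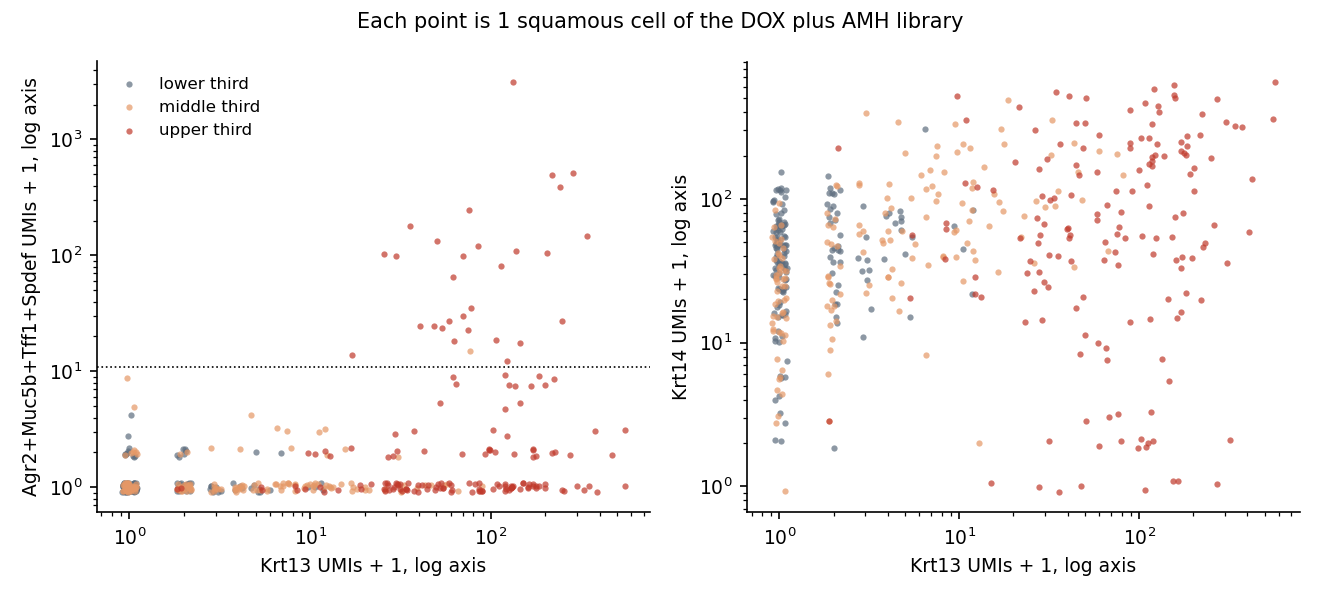
UMIs per squamous cell of Krt13 (horizontal, plus 1, log axis) against those of the 4 mucous genes (left) and Krt14 (right), coloured by group of the layer score, with a small random shift of points. The 30 cells above the dotted line of 10 mucous UMIs all lie at high Krt13, and most cells with few Krt14 UMIs at high Krt13 are upper cells.

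The columnar gate of DOX plus AMH also held cells with mucous genes and Krt13. At least 10 UMIs of the 4 mucous genes were found in 14 of 153 columnar cells in DOX plus AMH (9.15%, 5.09 to 14.9), of which 11 also had at least 10 Krt13 UMIs, and in 0 of 398 in DOX, which allows a share of up to 0.923%. Muc5b stood at 250 CPM in DOX plus AMH columnar cells and had 0 UMIs in those of DOX. Krt13 in columnar cells, at 114 CPM in DOX plus AMH and 1.68 CPM in DOX, was carried by few cells, since its median was 0 in both.

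The 7 cells of the DOX library differed in Trp63, Krt14 and Ly6d, while all 7 held Krt15. In 5 of them Trp63 had 55, 32, 31, 17 and 15 UMIs, with Krt14 at 95, 41, 18, 40 and 45 UMIs and Krt15 at 237, 321, 131, 58 and 85 UMIs. Ly6d was present in all 5, at 87, 110, 9, 68 and 36 UMIs, whereas Krt13 had 3, 9, 0, 0 and 1 and Spink5 1, 4, 0, 0 and 0. Sprr1a, an upper-layer gene of the score, had 32, 29, 39, 5 and 9. Over all squamous cells of DOX plus AMH it ran from 0 to 296 with a median of 7, not matched for depth. These 5 carried the basal markers with little Krt13 or Spink5, and on the boundaries from DOX plus AMH 1 was a lower and 4 were middle cells. One of them had 10 Mki67 UMIs. In the remaining pair Krt14 was at 0, Trp63 at 1 and 0, and Ly6d at 0, while Wfdc2 had 166 and 32 UMIs and Krt8 127 and 10. The basal keratin Krt15 was present in both, at 144 and 33 UMIs, and Sprr1a had 82 and 3. One of that pair held 126418 UMIs, with 174 of Krt5. No level of DOX plus AMH squamous cells was set against these 7 cells by a fold.

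Near the gate in DOX plus AMH, 17 cells had 10 to 14 UMIs of Krt5 and Krt14, with medians of 5 Trp63 and 9 Krt15 UMIs. The 33 barcodes just outside, with 5 to 9 UMIs, had medians of 1 Trp63 and 4 Krt15 UMIs. In the DOX library 1 cell lay at 10 to 14 UMIs and 2 barcodes at 5 to 9.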

How the data were processed

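Per the labels, uteri were dissociated with papain and collagenase and sequenced as droplet 3′ libraries. Per the submitters' processing notes the authors used Cell Ranger 7.0.0 on mm10, and what they deposited are unnormalised UMI counts, in which the smallest barcode holds 500 UMIs. UMIs were summed per class, scaled to CPM over all genes and compared as log2 ratios with the exact 95% interval of the binomial split. A class at 0 UMIs was set at 3 counts. Shares have exact Clopper-Pearson intervals, and some were taken after thinning cells to 2000 UMIs. Classes were counted at 4-fold and layers and lists at 2-fold (lists at 20 UMIs or more). Named genes were the 30 highest and 20 lowest ratios between classes, the 15 highest and lowest between layers, keratins, given markers and leading list members, and any other gene was named after its values were seen. Members, lists and gates were chosen with earlier results of these data known, and the mucous and collagen thresholds after seeing values. Doublets were not removed. Scrublet (Scanpy 1.11.5) marked 0 of 7065 DOX plus AMH barcodes, too few to be used, and 396 of 7783 in DOX, 58 of them columnar and 0 squamous. The highest 5% of its scores were left out as an alternative, 47 of them squamous in DOX plus AMH. The counting and intervals were tested on simulated data. TMM came from edgeR 4.0.16. Some genes are not reported here.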

Additional observations from a re-analysis of the deposited data

How the results depend on the processing

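No paired analysis was possible because each group is 1 library. The squamous share stayed between 6.17% (no barcode filter) and 7.37% (5 keratin UMIs) in DOX plus AMH and between 0.0642% and 0.116% in DOX. With 20 UMIs and no CPM minimum 670 genes were at least 4-fold higher and 1170 lower than in columnar cells, by construction more genes. Lists with a median of -1 or less numbered 1, but 3 with DOX columnar cells, 2 at 20 keratin UMIs, 3 by the mean of per-cell CPM and 4 without collagen-bearing cells. Between layers, a split at the median score in place of 3 groups gave 362 lower genes, 3 lists of at least 1 and 2 of -1 or less, the UMI-share score 4 lists of at least 1 (7 in the main result) and TMM 2 of -1 or less (4 in the main result). TMM moved the median of all genes by 0.16 between classes and 0.17 between layers, so ratios within that of 0 have no firm sign. Reversed were the antimicrobial list at -0.23 without collagen-bearing cells and Ccdc153, Cfap44, Gm19935 and Dnah9 at 0.35, 0.93, 0.02 and 0.76 with DOX columnar cells, at 3 or 4 UMIs in squamous cells. The dividing share was 23.6% unthinned, and keratin in all barcodes outside both epithelial gates was 38.5 CPM in DOX plus AMH and 0.299 CPM in DOX. The cause of these moves was not tested. Of the values for single genes and lists 1168 stayed the same and 185 moved without turning. Leaving out collagen-bearing cells, mucous cells or the highest Scrublet scores was chosen after seeing the data. The planned removal of Scrublet calls was not run, since it marked 0 of 7065 DOX plus AMH barcodes.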

Other observations

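Squamous cells held further genes, of which Aqp3 is a member of the suprabasal list. Lgals7, a galectin of stratified epithelium, stood at 1481 CPM in squamous and 4.76 CPM in columnar cells, and Aqp3, the glycerol and water channel of basal keratinocytes, at 85.1 and 1.13 CPM. Vsnl1, a calcium sensor, stood at 126 and 0.876 CPM and was lower in upper than in lower cells, at 35.2 and 278 CPM. Spink12 and the uncharacterised Gm94 and Gm41715 had 912, 1687 and 947 UMIs in squamous cells and 1 UMI each in columnar cells of DOX plus AMH, though Spink12 stood at 7.52 CPM in columnar cells of DOX, and all 3 stood higher in upper cells, Spink12 at 144 and 2.01 CPM. Foxn1 was found in 65 of 133 upper cells without mucous genes and in 8 of 163 lower cells.

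Complement C3 and Slpi peaked in the middle group of the layer score. C3 stood at 18.9 CPM in lower, 849 in middle and 13.6 in upper cells, and Slpi at 1.15, 169 and 4.54 CPM. The middle group also held 48 of the 71 cells with collagen UMIs, and the part of those cells in these values was not tested.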
